A study of Salmo salar with 58 samples.

Results

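The anterior hox genes described here are hoxb3a, hoxc5ba, hoxa2aa, hoxa2ab, hoxa3a, hoxa3ab and hoxa5a of the Atlantic salmon (Salmo salar). They are members by gene symbol, not by a cut on their values, although the set was picked with earlier results of these data known, and make up 7 of the 15 hox genes with a symbol in a table of 26239 genes. The other 8 are 4 middle members (hoxc6ba, hoxa7aa, hoxb7ab and hoxb8ab) and 4 posterior members (hoxa10ab, hoxc10aa, hoxc10ab and hoxa11ab). Polyadenylated RNA of distal intestine and liver was sequenced 12 h after acute exposure in vivo to enniatin B (ENNB) or beauvericin (BEA), 2 toxins of Fusarium moulds that contaminate fish feed. In each tissue there were 6 libraries of low ENNB, 6 of high ENNB, 5 of low BEA, 6 of high BEA and 6 of control, 58 in all. The labels give the doses only as low and high, name no strain, sex or age of the fish and no vehicle of the controls, and leave it unsaid whether every number stands for another fish. The p-values therefore measure the spread between libraries, which may in part be technical.

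Hox genes encode homeodomain transcription factors that lie in clusters, and their order along a cluster matches the order of their expression along the body axis. Anterior members are expressed from the hindbrain and pharynx backwards, middle and posterior members from the trunk and tail regions. In the vertebrate gut, hox genes are expressed mostly in the mesenchyme that forms smooth muscle and stroma, where they pattern the length of the tube, and adult tissues keep part of that pattern. In mouse, Hoxa2 specifies the second pharyngeal arch, Hoxa3 is needed for thymus and parathyroid, Hoxb3 acts in the hindbrain, and Hoxa5 acts in lung, stomach and intestine. Salmon carry several copies of each ancestral hox cluster, which is why hoxa2aa and hoxa2ab, or hoxa3a and hoxa3ab, occur side by side.

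By GeneID the members are 100194486 (hoxb3a), 100196592 (hoxc5ba), 100170847 (hoxa2aa), 100196596 (hoxa2ab), 100196642 (hoxa3a), 100170846 (hoxa3ab) and 100194478 (hoxa5a). In the reference annotation Ssal_v3.1, read for names and neighbours alone, hoxa2aa, hoxa3a and hoxa5a lie in 1 cluster. The second copies hoxa2ab and hoxa3ab lie in another, together with hoxa7aa, hoxa10ab and hoxa11ab. hoxc5ba stands next to hoxc6ba, and hoxb3a shares its cluster with no other hox gene of the table. The annotated span of hoxb3a encloses hoxb4aa, hoxb5aa and hoxb6aa, that of hoxa3a encloses hoxa4a, and that of hoxa3ab encloses hoxa4aa and hoxa5aa. Reads of enclosed genes and of near-identical copies may be counted for another gene, so the values of these members are uncertain in that respect.

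Reads assigned to genes numbered between 23.3 and 40.6 M in an intestine library, and between 30.7 and 61.7 M in a liver library. The summed normalized count of 5 hepatocyte markers was 980 to 6432 in control intestine and 1393344 to 2989729 in control liver. The sum of 13 enterocyte markers was 366768 to 613780 in intestine controls 1 to 4 and 77928 to 352931 in control liver, where slc6a19 and cdx1b of the list were at 0. Some genes of the list are thus high in liver, so this sum is not a measure of enterocytes between the tissues. Values are normalized counts, that is, reads divided by a factor of the library but not by gene length, so levels are compared between libraries and not between genes. Differences are log2 of normalized count plus 2, with a standard error and a limma p adjusted over all genes tested. The pseudocount of 2 makes differences of low values smaller than the true fold. In bulk tissue, fewer cells of a type and less RNA per cell cannot be told apart.

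Intestine controls 5 and 6 stood apart in cell type markers from the other 27 intestine libraries, 23 of them exposed. The summed normalized count of 13 enterocyte markers was 1394 and 2202 in controls 5 and 6, against 107639 to 869336 in the other 27 intestine libraries. In both libraries 10 of these 13 markers were below every other intestine library, and slc6a19, an amino acid transporter of the brush border, was at 0, as was the intestinal transcription factor gene cdx1b in control 5. All 6 smooth muscle markers were above every other intestine library, with sums of 241219 and 311448, against 34354 to 131024. All 3 markers of T and B cells were below every other intestine library, with sums of 234.8 and 255.6, against 869.1 to 1786. The main results against the intestine controls are given with and without these 2 libraries, a choice made with earlier results of these data known.

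The 7 genes had more RNA in distal intestine than in liver, and the step was steepest for hoxc5ba, hoxa2ab and hoxa2aa. All 7 passed the test between control intestine and control liver as higher in intestine, where 37% of the 26239 genes tested did so, and all 7 still passed without controls 5 and 6, where 38.6% did. For all 7 genes the lowest control intestine library lay above the highest control liver library, which held for 19% of genes in that direction, and for 27.9% without controls 5 and 6. The median log2 difference of the 7 was 2.86, against 0.07 over all genes tested. Smooth muscle markers moved with this difference: all 6 were higher in control intestine, with sums of 46220 to 311448 in control intestine and 249.5 to 614.9 in control liver. Of 6 fibroblast and stellate markers, 4 were higher and none lower. T and B cell markers (3) summed higher in control intestine without overlap, 234.8 to 1786.4 against 151.8 to 225.6. Red cell markers (5) summed lower without overlap, 444.7 to 2006.6 against 2689.4 to 8959.0. Some other lists had sums that overlapped between the tissues. Gut mesenchyme factors (5 genes) summed to 1331.3 to 2411.5 in control intestine and 2098.2 to 3031.8 in control liver. Enteric neuron and glia markers (7) had 634.1 to 1684.2 and 815.7 to 2710.4, and endothelial markers (8) 2159.4 to 3195.5 and 2328.3 to 2696.0. Such sums can hide single markers. The neuron and glia markers ret and vipb were at 0 in all control liver libraries, and the mesenchyme factor tbx20 in all control intestine libraries. The part of the cells that these lists stand for in the hox difference was not tested.

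Of the 5 anterior hoxa genes, the arch selector genes hoxa2aa and hoxa2ab had the steepest step, with and without controls 5 and 6. hoxa2aa ranged from 111.8 to 553.0 normalized counts with a median of 229.5 in the 6 control intestine libraries, and from 6.04 to 24.9 with a median of 15.8 in the 6 control liver libraries. The difference was 4.06 ± 0.34 on the log2 scale (limma adjusted p = 1.4e-15), and 3.603 ± 0.35 without controls 5 and 6. hoxa2ab ranged from 54.2 to 239.4 with a median of 90.8 in control intestine, and from 0 to 9.69 with a median of 0.855 in control liver, where 11 reads were counted over 6 libraries. Its difference was 4.86 ± 0.47 (limma adjusted p = 2.4e-13), and 4.33 ± 0.50 without controls 5 and 6. hoxa2ab was at 0 in 14 of the 29 liver libraries, and its highest liver value, 12.9, was 8 reads.

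hoxc5ba, of the C cluster, ranged from 12.6 to 193.1 with a median of 134.7 in control intestine, and was at 0 in all 6 control liver libraries. Over all 29 liver libraries only 2 reads were counted, both in replicate 3 of high ENNB. Set against the mean of 3 reads per control liver library, 4.79 normalized counts, control intestine was at least 22.8-fold higher, a limit for counting error only. The fitted difference was 5.18 ± 0.37 with all controls (limma adjusted p = 6.3e-18) and 6.29 ± 0.23 without controls 5 and 6, in which hoxc5ba was lowest.

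hoxb3a, hoxa3a, hoxa3ab and hoxa5a had smaller steps, and like hoxa2aa they were counted in all 29 liver libraries. hoxb3a ranged from 222.9 to 839.7 with a median of 433.7 in control intestine, and from 74.0 to 148.7 with a median of 101.9 in control liver, a difference of 2.05 ± 0.21 (limma adjusted p = 3.2e-12), or 1.64 ± 0.21 without controls 5 and 6. hoxa3ab ranged from 192.6 to 402.0 with a median of 338.4 in control intestine, and from 46.1 to 100.1 with a median of 86.8 in control liver, a difference of 2.005 ± 0.22 (limma adjusted p = 1.2e-11), or 1.94 ± 0.25 without controls 5 and 6. The pharyngeal gene hoxa3a had 2.50 ± 0.27 (limma adjusted p = 1.4e-11), from 152.6 to 348.3 in control intestine and 13.3 to 68.4 in control liver, and 2.32 ± 0.30 without controls 5 and 6. hoxa5a had 2.86 ± 0.38 (limma adjusted p = 2.9e-09), from 107.6 to 239.7 in control intestine and 5.32 to 46.8 in control liver, and 2.70 ± 0.42 without controls 5 and 6. None of these 4 ranges overlapped between the tissues.

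Ordered by mean, all 5 intestine groups stood above all 5 liver groups for each of the 7 genes. The means of hoxb3a in intestine were 318.6 ± 90.4 in low ENNB, 420.0 ± 79.5 in high ENNB, 321.6 ± 25.05 in low BEA, 307.0 ± 30.8 in high BEA and 478.8 ± 239.5 in control (SD, n = 6, 6, 5, 6 and 6). In liver they were 111.7 ± 22.6, 103.2 ± 26.2, 89.8 ± 10.5, 90.9 ± 17.4 and 105.5 ± 28.5 in the same order of groups. The single pair of neighbours in that order whose libraries did not overlap was high BEA intestine above low ENNB liver. For each of the other 6 genes, too, the lowest intestine group above the highest liver group was the one neighbouring pair without overlap. Over all pairs of groups within a tissue, 1 did not overlap, low BEA above control for hoxa3ab in intestine.

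**Figure D1:**
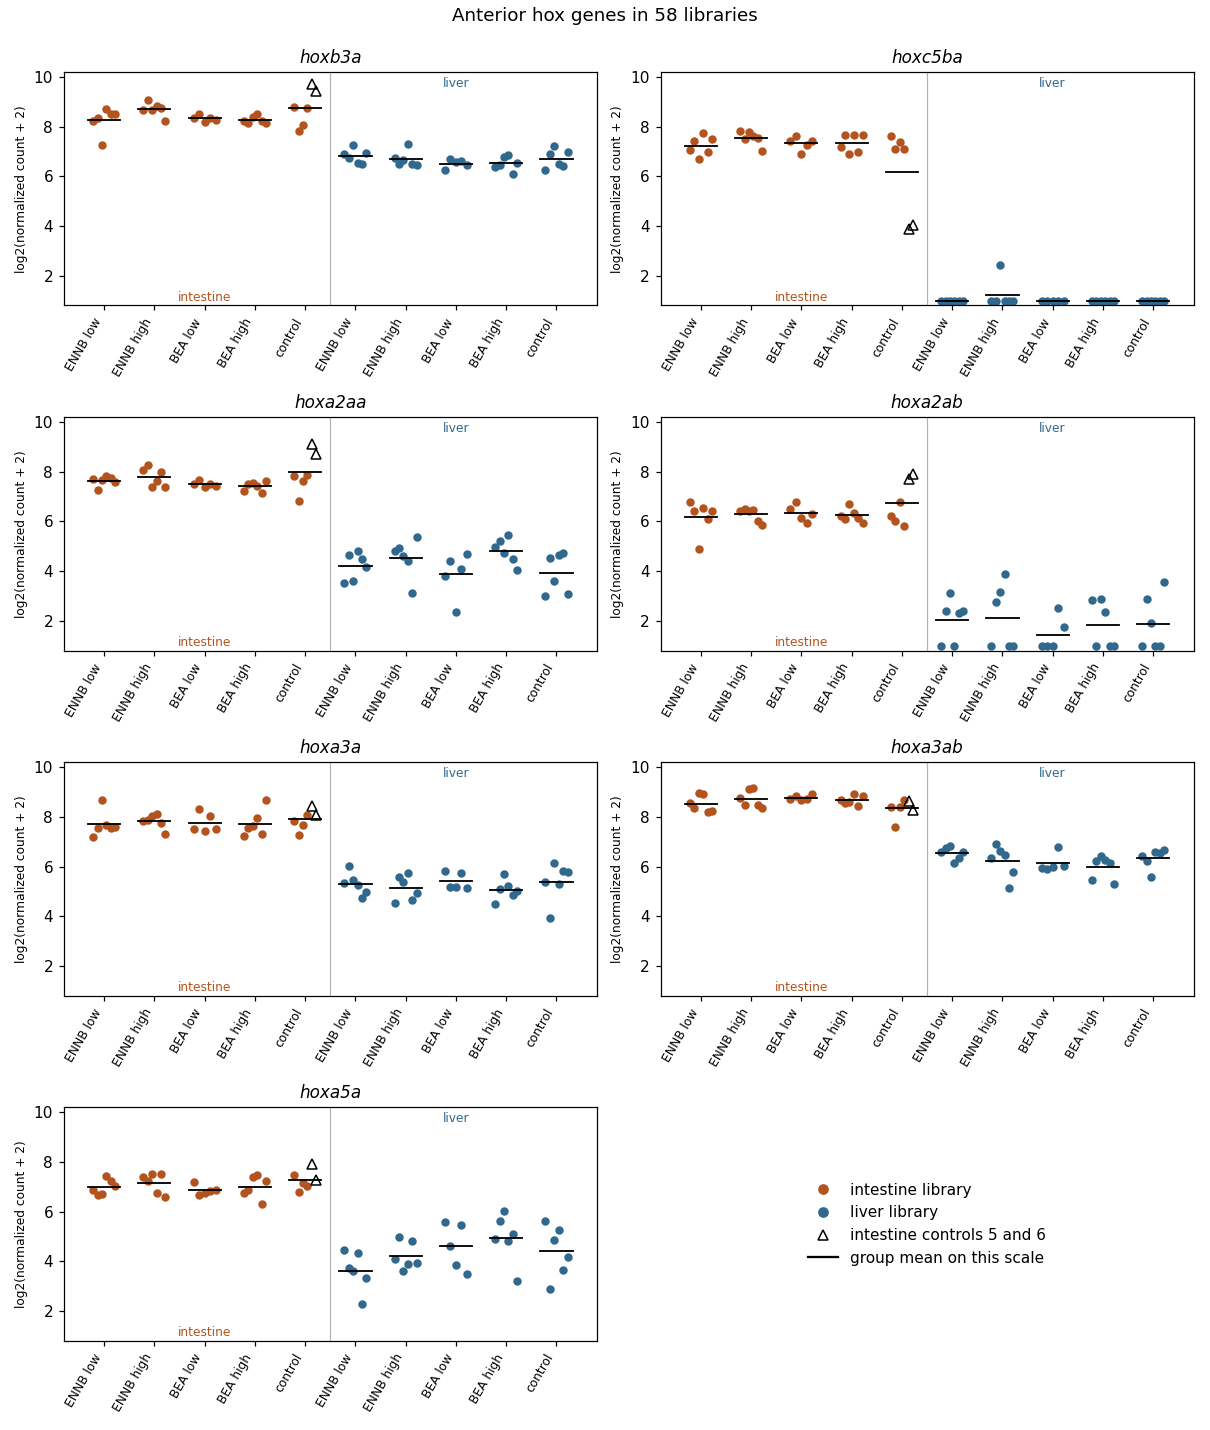
Normalized counts of the 7 anterior hox genes in every library, on a log2(normalized count + 2) axis, by tissue and group (ENNB, enniatin B; BEA, beauvericin; 5 or 6 libraries a group). Bars are group means on this scale and open triangles are intestine controls 5 and 6, which are the highest of hoxb3a, hoxa2aa and hoxa2ab and the lowest of hoxc5ba in intestine.

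Other genes of hox regulation differed between the control tissues in both directions. Of all genes tested, 37% were called higher in control intestine, and the share called lower is not given here. Counts by list therefore do not set these genes apart from other genes. Of 8 genes of the retinoic acid pathway, which sets anterior hox expression in the embryo, 2 were higher and 6 lower in control intestine. aldh1a2, the main enzyme of retinoic acid synthesis, was higher by 3.67 ± 0.35, while the plasma retinol carrier gene rbp4 had -6.19 ± 0.39, the retinol transporter gene stra6l -3.31 ± 0.18 and the retinoid X receptor rxrga -4.21 ± 0.39 (limma adjusted p between 7.984e-23 and 1.343e-13). The TALE class of homeodomain genes includes partners of Hox proteins on DNA. Of 5 measured TALE genes, meis2a was higher (1.36 ± 0.17) and tgif1 (-1.18 ± 0.19) and meis1b (-1.30 ± 0.24) were lower. Among 7 chromatin and upstream regulators, cdx1b (7.88 ± 0.90), the demethylase gene kdm6ba (2.16 ± 0.28) and the Polycomb gene bmi1a (1.24 ± 0.28) were higher, and cbx8b (-2.19 ± 0.16), also of Polycomb, was lower. Without controls 5 and 6 these 11 genes kept direction and call in limma, with cdx1b at 10.95 ± 0.15, aldh1a2 at 4.12 ± 0.37 and kdm6ba at 1.48 ± 0.23, and a second of the 7 chromatin and upstream regulators was lower. All 4 middle and all 4 posterior hox genes were higher in control intestine, with medians of 2.98 and 3.13, and of 3.75 and 3.74 without controls 5 and 6, where hoxa10ab moved most (2.95 ± 0.54 with them, 4.56 ± 0.34 without).

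In intestine no exposure moved any of the 7 genes past the test. The limma count was 0 of 7 for low ENNB, high ENNB, low BEA and high BEA, where 0%, 0%, 0.0156% and 0.00391% of 25601 genes passed. At an unadjusted p under 0.05 limma gave 1, 2, 2 and 2 of the 7, where 17.5%, 17.7%, 18.7% and 16.9% of all genes were so low. voom called 0 of 7 in each, beside 0%, 0%, 0.00391% and 0% of all genes, and so did edgeR, beside 2.49%, 2.26%, 1.59% and 2.21%. DESeq2 called 0, 0, 0 and 1, beside 6.13%, 5.48%, 6.24% and 5.07% of all genes, and the one was hoxa2aa in high BEA at -0.77 (DESeq2 adjusted p = 0.043). The mean of the 4 exposures against control is the comparison with most libraries, 23 against 6, and 2.73% of genes passed it, but none of the 7, of which 3 had an unadjusted p under 0.05 beside 26.8% of all genes. In that mean voom called 0, beside 0% of all genes, while edgeR and DESeq2 called 2 of the 7, hoxa2aa and hoxa2ab, both lower, beside 11.9% and 14% of all genes. Once controls 5 and 6 were left out edgeR and DESeq2 called 0, beside 0% and 0.121%. Without those controls limma called 0 of 7 in each of the 5 comparisons, where 0%, 0%, 0.00391%, 0.00391% and, for the mean, 0.00782% of 25568 genes passed. At an unadjusted p under 0.05 it then gave 0, 1, 1, 1 and 1 of the 7, each time hoxa3ab, beside 6.96%, 9.43%, 8.18%, 4.67% and 9.11% of all genes.

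For hoxb3a, hoxa2aa and hoxa2ab the difference between exposed and control intestine lay in controls 5 and 6. hoxa2aa stood at 204.0, 150.9, 200.1, 226.2, 214.9 and 191.1 in low ENNB, and at 148.9, 181.4, 185.8, 170.0, 139.3 and 198.0 in high BEA, against 225.6, 111.8, 195.5, 233.4, 553.0 and 422.2 in controls 1 to 6. Controls 1, 3 and 4 lay within the range of the 23 exposed libraries, control 2 lay below it and controls 5 and 6 above it. The mean of the 4 exposures differed from control by -0.42 ± 0.19 (limma adjusted p = 0.16), and by 0.04 ± 0.15 without controls 5 and 6. hoxa2ab went the same way, at -0.48 ± 0.25 (limma adjusted p = 0.21) and 0.05 ± 0.22, as did hoxb3a, at -0.37 ± 0.19 (limma adjusted p = 0.23) and 0.04 ± 0.18. Leaving out control 2, the lowest control of both genes, brought hoxb3a (-0.55) and hoxa2aa (-0.65) past the threshold, at limma adjusted p of 0.042 and 0.021, in a fit where 18.9% of all genes passed.

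hoxc5ba was the opposite case, with controls 5 and 6 at the bottom. Its values in high ENNB were 222.7, 177.6, 220.3, 194.7, 183.3 and 126.9, and in low BEA 168.2, 195.7, 117.0, 152.1 and 170.6, against 193.1, 135.0, 163.9, 134.4, 12.6 and 14.4 in controls 1 to 6. Controls 1 to 4 lay inside the exposed range, and controls 5 and 6 lay below the lowest of the other 27 libraries, 100.4. The difference from control was 1.05 ± 0.47 in low ENNB, 1.36 ± 0.47 in high ENNB, 1.15 ± 0.49 in low BEA and 1.16 ± 0.47 in high BEA, none past the test. Their mean was 1.18 ± 0.37 (limma adjusted p = 0.060), and it passed when any 1 of controls 1 to 4 was left out, at 1.36 to 1.47 and limma adjusted p of 0.018 to 0.029, in fits where 15.1%, 18.9%, 13.8% and 17.2% of all genes passed. Without controls 5 and 6 it was 0.07 ± 0.17 (limma adjusted p = 0.92).

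hoxa3ab was the one member whose difference from control kept its size without controls 5 and 6, though it did not pass in either fit. Its 5 low BEA libraries had 414.0, 458.9, 405.2, 417.6 and 476.8 normalized counts, against 337.7, 192.6, 339.0, 402.0, 400.2 and 307.9 in controls 1 to 6. All 5 lay above all 6 controls, as 0.516% of genes did in that comparison and 0.99% without controls 5 and 6. Above the control median lay 6 of 6 high BEA, 5 of 6 high ENNB and 3 of 6 low ENNB libraries. The share of all genes so placed is not given here. The differences were 0.19 ± 0.17 in low ENNB, 0.38 ± 0.17 in high ENNB, 0.43 ± 0.18 in low BEA and 0.33 ± 0.17 in high BEA, with limma adjusted p between 0.21 and 0.57. Their mean was 0.33 ± 0.14 (limma adjusted p = 0.11) with all controls, and 0.40 ± 0.16 without controls 5 and 6 (limma adjusted p = 0.50). That size rested in part on a single library. When any 1 library was left out, the mean of exposures ran from 0.188 to 0.399. The low ENNB difference then ran from 0.047 to 0.26. The lowest control, at 192.6, was kept in the fit without controls 5 and 6.

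hoxa3a, the other copy of the same gene, had -0.14 ± 0.19 in the mean of exposures (limma adjusted p = 0.67) and 0.04 ± 0.22 without controls 5 and 6, and hoxa5a had -0.26 ± 0.16 (limma adjusted p = 0.31) and -0.10 ± 0.18. The ratio of hoxa3ab to hoxa3a normalized counts, chosen after its values were seen and so given with no test, was 1.84 ± 0.51 in low ENNB, 1.89 ± 0.26 in high ENNB, 2.07 ± 0.50 in low BEA, 1.99 ± 0.52 in high BEA and 1.37 ± 0.21 in control (SD, n = 6, 6, 5, 6 and 6). The groups overlapped: controls ran from 1.15 to 1.67 and the exposed libraries from 1.125 to 2.73. Without controls 5 and 6 the control ratio was 1.48 ± 0.17.

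**Figure D2:**
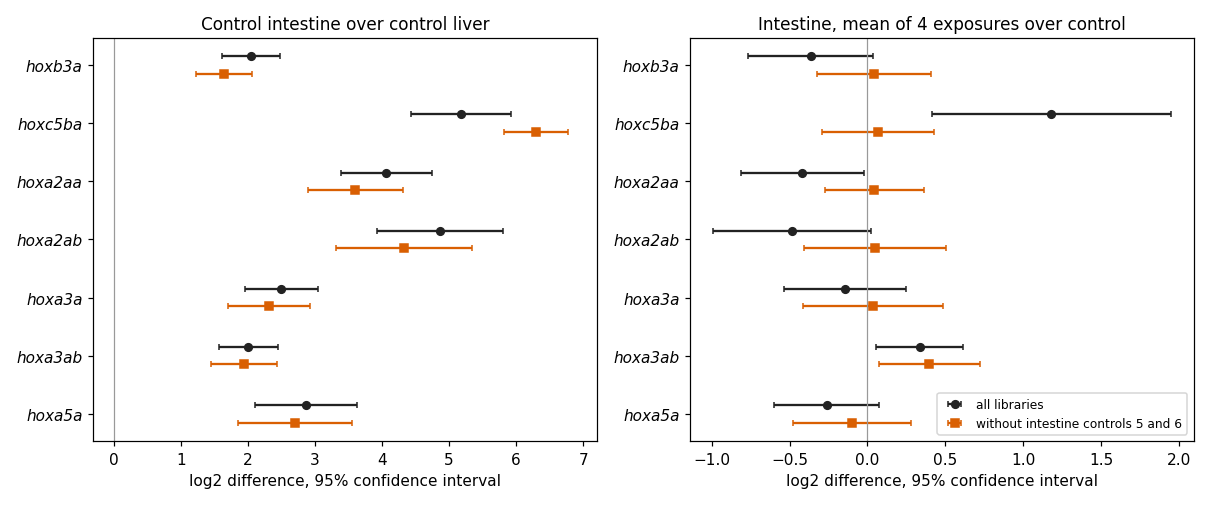
Log2 differences of the 7 genes with 95% confidence intervals from limma, for control intestine over control liver (left) and for the mean of 4 exposures over control in intestine (right). Black circles use all libraries and orange squares leave out intestine controls 5 and 6: the tissue differences stay between 1.64 and 6.29, while 6 of the 7 exposure differences move to between -0.10 and 0.07 and hoxa3ab stays at 0.40.

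Enniatin B and beauvericin are cyclic depsipeptides that share their hydroxy acid and differ in the N-methylated amino acid, a valine in enniatin B and a phenylalanine in beauvericin. Doses called low, or high, are not stated to be equal for both, so the 2 toxins are set side by side by dose name. None of the 7 genes passed in low ENNB against low BEA (0% of genes passed) or in high ENNB against high BEA (0.00391% passed). No member had an unadjusted p under 0.05 in limma, voom, edgeR or DESeq2, beside 1.53% and 3.04% of all genes in limma. All 7 were above 0 in high ENNB against high BEA, with a median of 0.16, against 0.02 over all genes. The share of all genes above 0 is not given here. The 7 genes come from the same libraries, so they are not 7 separate results. hoxb3a had the largest, 0.43 ± 0.24 with a 95% interval of -0.07 to 0.94, from 296.5 to 541.1 in high ENNB and from 280.2 to 359.2 in high BEA. hoxa2aa followed with 0.36 ± 0.24 and an interval of -0.13 to 0.86. Both limma adjusted p were 0.9993. The fit without controls 5 and 6 gave the same differences with a smaller error, unadjusted p of 0.031 and 0.036 and limma adjusted p of 0.77; 2 of the 7 were then under 0.05 unadjusted, beside 5.55% of all genes, and 0 in low ENNB against low BEA, beside 3.19%.

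In liver the low counts of hoxc5ba and hoxa2ab did not pass the filter, which asked for 10 normalized counts in 5 libraries, and 5 of the 7 genes were tested. None passed in any of the 4 exposures, where 0% of 25157 genes passed in low ENNB, high ENNB and high BEA and 0.127% in low BEA, nor in the mean of 4 exposures (0.0398%) or between the toxins (0% for both dose names). voom, edgeR and DESeq2 also called 0, and the share of all genes that each called in liver is not given here. At an unadjusted p under 0.05, edgeR and DESeq2 each gave 1 of 5 in low ENNB against low BEA. In high BEA against control voom and DESeq2 each gave 1 of 5. These counts, too, stand without the share of all genes. At an unadjusted p under 0.05 limma gave 0, 0, 0 and 1 of 5 in low ENNB, high ENNB, low BEA and high BEA, beside 3.64%, 2.77%, 8.27% and 9.44% of all genes, and 0 between the toxins at the low and high dose names, beside 3.99% and 10.3%. The one was hoxa2aa in high BEA, at 0.045. Its high BEA values were 29.7, 35.3, 24.6, 41.7, 20.4 and 14.5, against 6.04, 21.3, 10.3, 22.8, 24.9 and 6.46 in control liver, so the groups overlapped. The difference was 0.88 ± 0.42 (limma adjusted p = 0.52).

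Over the 4 exposures the liver differences ran from -0.19 to 0.10 for hoxb3a, from -0.36 to 0.21 for hoxa3ab, from -0.33 to 0.01 for hoxa3a, from -0.07 to 0.88 for hoxa2aa and from -0.78 to 0.54 for hoxa5a. Relative to its mean, hoxa5a varied most between livers among these 5 genes, with an SD of 66.8% of the mean over 29 libraries. It ran from 2.91 to 62.4 normalized counts, with only 462 reads in all of them. Its largest gap between toxins was -0.97 ± 0.51 in low ENNB against low BEA (95% interval -2.02 to 0.07, limma adjusted p = 0.9998), from 2.91 to 20.2 in low ENNB and from 9.25 to 45.7 in low BEA. Whether an exposure's difference was unlike between the 2 tissues was tested with an interaction term for each of the 5 genes with a tested liver level and 4 exposures. That fit had no term for intestine and liver libraries that share a number. None of these 20 terms passed in limma, where 0%, 0%, 0.0267% and 0.00381% of genes did in low ENNB, high ENNB, low BEA and high BEA. In the same order 0, 0, 0 and 2 of 5 had an unadjusted p under 0.05, beside 11%, 10.4%, 14.3% and 12.5% of all genes. The 2 were hoxa2aa, at -1.46 ± 0.48 for intestine minus liver (limma adjusted p = 0.29), and hoxa3ab, at 0.69 ± 0.31 (limma adjusted p = 0.37), both in high BEA. Without controls 5 and 6 they were -1.003 ± 0.47 and 0.75 ± 0.33 (limma adjusted p = 0.97 for both), and hoxa3ab in low BEA, at 0.70 ± 0.34 (limma adjusted p = 0.62), was the one other term under 0.05 unadjusted, beside 3.99%, 3.97%, 8.03% and 4.92% of all genes.

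Controls 5 and 6 of the intestine split the hox genes. hoxb3a stood at 839.7 and 679.6 in controls 5 and 6, 2.57 and 2.08 times the median of the other 27 intestine libraries, whose highest was 541.1. hoxa2aa stood at 553.0 and 422.2, 2.89 and 2.21 times that median, and hoxa2ab at 207.5 and 239.4, 2.70 and 3.12 times. These 3 genes were above all other 27 libraries in both, and hoxa5a was so in control 5 alone. hoxa3a and hoxa3ab stayed inside the range of the others. hoxc5ba alone among the 7 was below it, at 0.07 and 0.08 times the median. The share of all genes outside the range of the other 27 libraries is not given here. These counts therefore do not set hox genes apart from other genes.

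Of the 8 middle and posterior genes, most lay low with hoxc5ba, while hoxc10ab lay high. In control 5, 3 of 4 middle and 2 of 4 posterior genes were below all other 27 libraries, and in control 6, 3 and 3 were. These counts, too, stand without the share of all genes below the other 27. hoxc6ba, the neighbour of hoxc5ba, had 4.21 and 0.90 normalized counts against a median of 98.4, and hoxa10ab was at 0 in both against a median of 79.2. hoxc10ab stood at 123.4 in control 5, the highest of 29 libraries, and at 90.9 in control 6, against a median of 56.9. hoxa7aa, which lies in the cluster of hoxa2ab, had 7.01 and 2.70 against a median of 178.9, while hoxa2ab itself was high. In both controls, smooth muscle markers lay above all other 27 libraries (6 of 6). Most enterocyte markers (10 of 13) and all T and B cell markers (3 of 3) lay below them. Hepatocyte markers summed to 4406 and 6432, against 980.3 to 3265 in the other 27. In both controls 2 of these 5 were above all others, and in control 5 another 1 was below. Of 5 red cell markers, 1 and 3 were above all others and 0 below. Endothelial markers went both ways, with 2 of 8 above and 2 below in control 5, and 3 above and 1 below in control 6. Sums of red cell and endothelial markers lay inside the range of the others except for endothelial markers in control 5, 2159 against 2415 to 3776. Of 5 gut mesenchyme factors, 1 was above in each control, and 1 was below in control 6. Of 7 enteric neuron and glia markers, 2 and 1 were above, and 1 was below in control 6. Of 6 fibroblast and stellate markers, 2 and 3 were above all others and 1 below, with sums of 99025 and 122401, against 57928 to 104806. The part of these cell types was not tested.

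Replicate 3 of low ENNB departed in another way. hoxb3a (151.5) and hoxa2ab (27.8) were the lowest of all 29 intestine libraries, and hoxc5ba (100.4) was the lowest outside controls 5 and 6. hoxa3a (402.8) was the highest of 29, next to replicate 6 of high BEA (402.7). The middle genes hoxc6ba, hoxb7ab and hoxb8ab were at 0.08, 0.37 and 0.04 times the median of the 26 libraries other than this one and controls 5 and 6, whereas hoxa7aa, hoxc10aa and hoxa11ab were at 2.32, 3.09 and 3.11 times. The 5 hox genes of B and C clusters that are anterior or middle were all lower here than in each of those 26, as was hoxa2ab. By contrast, hoxa7aa, hoxc10aa and hoxa11ab were the highest of 29, as was hoxa3a. How many of all genes were so placed in this library is not given here.

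**Figure D3:**
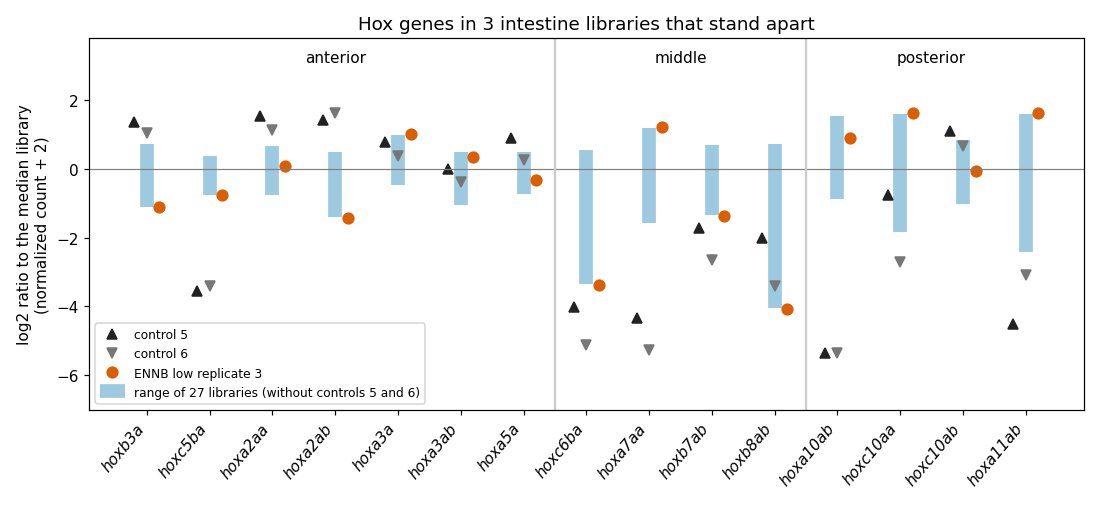
The 15 hox genes in intestine controls 5 and 6 and in replicate 3 of low ENNB, as the log2 ratio to the median of the intestine libraries without controls 5 and 6 (and without the library itself), on normalized count plus 2. Blue bars are the range of 27 libraries without controls 5 and 6: hoxb3a, hoxa2aa and hoxa2ab lie above it in both controls, and hoxc5ba with hoxc6ba, hoxa7aa, hoxb7ab, hoxa10ab and hoxa11ab lie below it.

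Of all reads of the 15 hox genes, the 7 took 65.5 ± 6.3% in low ENNB, 66.4 ± 3.4% in high ENNB, 61.5 ± 2.9% in low BEA, 62.8 ± 4.3% in high BEA and 79.5 ± 10.4% in control (SD, n = 6, 6, 5, 6 and 6). The controls stood at 75.9, 73.7, 72.7, 69.7, 91.4 and 93.9%, and controls 1 to 4 averaged 73.0 ± 2.6%. The 23 exposed libraries ran from 55.01 to 73.3%, and 19 of them were below every control. The lowest was replicate 3 of low ENNB. The low BEA libraries, at 57.9 to 64.8%, all lay below the controls. In liver the share was higher, from 86.2 ± 4.7% in low BEA to 90.8 ± 4.2% in control, with no such step. The share is not tested, since its members were chosen with results of these data known.

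Some of the other 8 genes in that share passed the test where none of the 7 did. In the mean of 4 exposures against control, 1 of 4 middle and 3 of 4 posterior genes were higher in limma. Of the anterior genes 0 of 7 passed, beside 2.73% of all genes in either direction. With so few genes called, 0 of 7 does not set the anterior genes apart from other genes. hoxa11ab had 2.74 ± 0.39 (limma adjusted p = 0.0036), hoxa10ab 2.36 ± 0.56 (0.046), hoxa7aa 2.38 ± 0.44 (0.026) and hoxc10aa 1.28 ± 0.27 (0.035). Without controls 5 and 6 none of these passed, beside 0.00782% of all genes, and hoxa11ab had 2.10 ± 0.39 (limma adjusted p = 0.10). The medians were -0.26 for the anterior, 1.31 for the middle and 1.82 for the posterior genes with all controls, and 0.04, 0.19 and 0.86 without controls 5 and 6, against 0.01 over all genes tested with all controls.

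**Figure D4:**
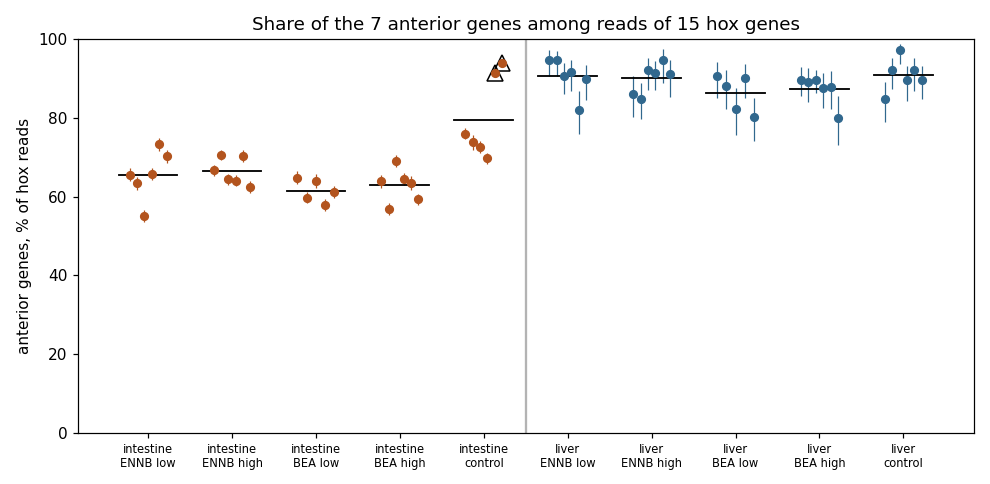
Share of the 7 anterior genes among the reads of the 15 hox genes in each library, with 95% Wilson intervals (counting error only) and group means as bars. Open triangles mark intestine controls 5 and 6, at 91.4 and 93.9%; the exposed intestine libraries lie between 55.01 and 73.3% and the other controls between 69.7 and 75.9%.

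Regulators of hox genes gave few calls in exposed intestine, where few of all genes were called as well. Of all genes, 2.73% passed in limma in the mean of 4 exposures, and 0.00782% without controls 5 and 6. The counts of calls below do not set the regulators apart from other genes. In the mean of 4 exposures, stra6l was higher (0.59 ± 0.16, limma adjusted p = 0.048), the only one of 8 genes of the retinoic acid pathway to pass, and it had 0.21 ± 0.12 without controls 5 and 6 (limma adjusted p = 0.62). None of 5 TALE genes passed, the smallest p being that of pbx2 (-0.29 ± 0.09, limma adjusted p = 0.057). None of 7 chromatin and upstream regulators passed. cdx1b, which acts upstream of hox genes along the gut, had 2.87 ± 0.99 with all controls (limma adjusted p = 0.073) and -0.21 ± 0.11 without controls 5 and 6. In the same comparison 2 of 13 enterocyte markers were higher, 0 of 6 smooth muscle and 0 of 6 fibroblast markers passed, and without controls 5 and 6 none of these passed.

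Among themselves the 7 genes varied together only in part. Over the 27 intestine libraries without controls 5 and 6, with group means taken out, Pearson's r between log2 values was 0.62 for hoxa3a with hoxa3ab, 0.54 for hoxa2aa with hoxa5a and 0.55 for hoxa2ab with hoxb3a, but 0.11 for the copies hoxa2aa and hoxa2ab. These values describe libraries that share tissue make-up and depth. hoxb3a was closest to middle genes of other clusters, hoxc6ba (0.85) and hoxb8ab (0.82). hoxa3a and hoxa3ab were closest to posterior genes, at 0.76 for hoxa3a with hoxa10ab and 0.69 for hoxa3ab with hoxa11ab.

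Part of that pattern rested on replicate 3 of low ENNB. Over 26 libraries without it, hoxb3a had 0.70 with hoxc6ba and 0.63 with hoxb8ab, and its r with hoxa3a was 0.50, against -0.05 with that library. hoxa2ab had 0.18 with hoxc6ba, against 0.67, and 0.13 with hoxb3a, against 0.55. hoxa3a with hoxa10ab kept 0.72 and hoxa3ab with hoxa11ab kept 0.65. hoxa2aa with hoxb3a had 0.71, the highest r between any pair of the 7 in these 26 libraries.

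**Figure D5:**
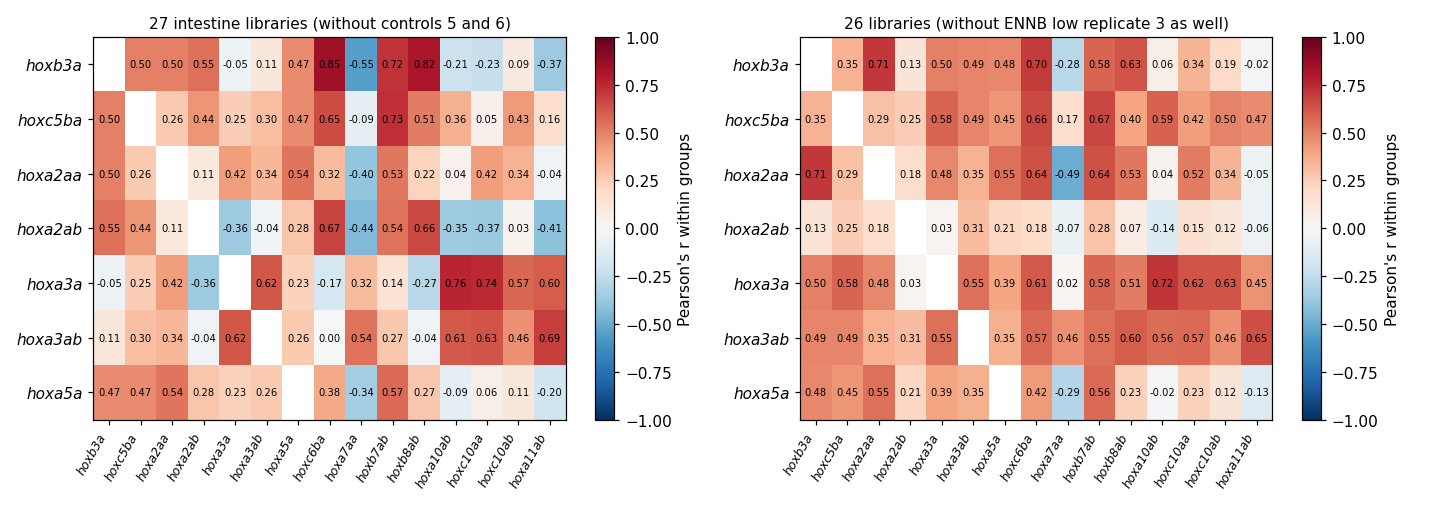
Pearson's r of log2(normalized count + 2) within groups between each of the 7 anterior genes (rows) and the 15 hox genes (columns), over 27 intestine libraries without controls 5 and 6 (left) and over 26 without replicate 3 of low ENNB as well (right). hoxb3a with hoxc6ba is 0.85 on the left and 0.70 on the right, and hoxa3a with hoxa10ab 0.76 and 0.72.

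The genes most like each member were taken from all named genes by the same r over the 27 libraries. Here and below they are the highest of many r values, for which no chance level was computed. They rank genes and do not test a relation. hoxa2aa followed vim (0.82), which encodes the intermediate filament of mesenchymal cells, frem1a (0.78) and prnpb (0.77), and vim was first over all 29 libraries (0.92) and over the 26 (0.83) as well. hoxa5a followed the fibronectin receptor subunit itga5 (0.83), dpysl3 (0.80) and pmp22b (0.80). hoxa3ab followed cav1 (0.77), of caveolae, cobll1b (0.74) and si:ch211-1a19.3 (0.74). hoxa3a followed epb41l2 (0.91), prss59 (0.87) and zfp36l1b (0.86). hoxb3a followed the kinase gene sgk1 (0.87), ldhd (0.85) and hoxc6ba, hoxc5ba followed smoc2 (0.78), fam89b (0.78) and cxcl14 (0.76), and hoxa2ab followed the secretin receptor sctr (0.77), rs3a (0.76) and duox (0.75). Over the 26 libraries the first gene stayed the same for hoxa2aa, hoxa5a, hoxa3ab and hoxa3a, whereas for hoxc5ba it was fam89b (0.77). None of the 3 stayed for hoxb3a, which then followed ppcdc (0.83), fhl3 (0.82) and elavl3 (0.79), or for hoxa2ab, which followed znf638 (0.66), leg (0.65) and c1qtnf12 (0.63).

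With controls 5 and 6 in, the nearest genes of hoxc5ba were xdh (0.94), mep1bb (0.94), a brush border peptidase gene, and msrb2 (0.94), and those of hoxb3a included myocd (0.90), the coactivator of smooth muscle genes, after ppfibp1b (0.91). In liver, over 29 libraries, the 5 genes tested had lower maxima, from 0.69 for hoxb3a with mettl21e to 0.73 for hoxa2aa with slc6a8. The second nearest of hoxa2aa in liver was kdr (0.71), a receptor of endothelial cells. No gene was among the nearest 3 of the same member in both tissues.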

How the data were processed

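Total RNA came from a QIAzol extraction with the EZ1 kit, was enriched on oligo(dT) and was sequenced as 150 bp paired reads, per the labels' protocols. Trim Galore 0.4.2, FastQC, HISAT2, featureCounts of Subread and DESeq2 1.18.1 were used, per the submitters' processing notes. The genome build is not given in the sources used here. Positions in Ssal_v3.1 were read for neighbours and enclosed genes only, and none is printed; sequences were not used here. What the authors deposited as signal are normalized counts, reads over 1 factor per library: 99.9999% of values came within 0.1 of whole reads when recovered. The lowest mean over libraries is 21.1. Of the GeneIDs, 24184 matched names of Ssal_v3.1.

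The main test was limma 3.58.1 (R 4.3.3) with trend and robust options, on log2(value + 2), for genes with 10 or more in at least 5 libraries. It used all 29 libraries of a tissue, or all 58 between tissues, with Benjamini-Hochberg adjustment at 0.05. voom, edgeR 4.0.16 and DESeq2 1.42.0 were run on recovered reads as alternatives, beside other pseudocounts, scaling, filters and omitted libraries. Members, gene lists and tests were chosen with earlier results of these data known. All 7 members are named, with up to 4 genes that pass or 2 of smallest p from each other list, and the 3 named genes of highest r to each member. The interaction terms, with and without controls 5 and 6, the 26-library correlations and the edgeR and DESeq2 fits without controls 5 and 6 were added after the data were seen. On simulated counts of high beauvericin against control, limma recovered 2% of 1.5-fold, 38% of 2-fold and 100% of 4-fold changes in intestine (25601 genes). In liver (25157 genes) it recovered 18%, 62% and 98%. A gene that did not pass may therefore still differ by 2-fold or more. The simulation drew all libraries around 1 mean per gene apart from the set folds, with none like controls 5 and 6. Larger differences went uncalled in the deposited values, such as hoxa10ab in low BEA intestine, at 2.71 ± 0.74 (limma adjusted p = 0.16). No 2 libraries of a group were copies (lowest chi-square per degree of freedom 28.6). Counting intervals and floors cover counting error only.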

Additional observations from a re-analysis of the deposited data

Results flagged for a closer look

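In 4 of 66 sets of libraries (1 gene in 1 group) the highest library stood apart from the rest of its group; chance alone gives such a gap in about 1 of 20. hoxa3a in low ENNB intestine reached 402.8 normalized counts in replicate 3, where the other 5 libraries had 145.6 to 201.9, and this is the library in which hoxb3a and hoxa2ab were the lowest of 29. hoxb3a in high ENNB liver reached 154.8 in replicate 4, where the other 5 had 86.4 to 103.9. hoxa3ab in low BEA liver reached 108.6 in replicate 4, where the other 4 had 58.1 to 62.1. hoxc5ba in high ENNB liver reached 3.4 in replicate 3, which is 2 reads, where the other 5 were at 0.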

How the results depend on the processing

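All 7 genes stayed higher in control intestine than in control liver under every alternative run, and hoxc5ba ran from 4.89 to 5.64 when 1 control was left out. In the exposures the count of genes past 0.05 was 0 of 7 in intestine and 0 of 5 in liver under all alternatives but these: DESeq2 called 1 in high BEA intestine, edgeR and DESeq2 called 2 in the mean of 4 exposures in intestine, and leaving out 1 library gave 0 to 3 in that mean, with 0.00391 to 18.9% of all genes called (DESeq2 in high BEA 5.07%; in the mean, edgeR 11.9% and DESeq2 14%). Without controls 5 and 6, the log2 difference of that mean turned from negative to positive for hoxb3a (0.04 in limma, 0.002 in DESeq2), hoxa2aa (0.043), hoxa2ab (0.049 in limma, 0.020 in edgeR, 0.033 in DESeq2) and hoxa3a (0.035, 0.049 and 0.060). hoxc5ba in low ENNB turned to -0.061 in limma, -0.051 in edgeR and -0.034 in DESeq2. Without replicate 3 of low ENNB as well, hoxb3a had 0.09, hoxa2aa 0.041 and hoxa2ab 0.114. The fit without controls 5 and 6 differs by those libraries alone; why they differ was not tested. With 1 library left out, the mean in intestine was as low as -0.553 for hoxb3a, -0.652 for hoxa2aa and -0.671 for hoxa2ab. In liver it ran from -0.167 to 0.03 for hoxb3a and from -0.364 to 0.184 for hoxa5a. Among results for single genes, and apart from leaving out single libraries, 15 values reversed, 4 became called and 357 kept direction and call.

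Samples share only a number: within intestine the 56 pairs with the same number had a median r of -0.002, with 15 over 0.1. Between the tissues, each intestine library was set only against the liver libraries of its own treatment, and 28 of 29 were closest to their own number. This is a hint from the data and not from the design. With the replicate block no call changed: 0 of 7 genes passed in the mean of exposures in intestine, where hoxc5ba had 1.15, and 7 of 7 passed between the tissues. The share of all genes called with that block is not given here, so these counts do not set the 7 apart from other genes. The interaction terms were not fitted with that block. In liver, hoxc5ba and hoxa2ab were too low to be tested, and hoxa2aa and hoxa5a rested on 400 and 462 reads over 29 libraries.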
